A study of Mus musculus with 18 samples.

Results

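The loss of 1 Trp53 allele in fibroblasts with intact Pole4 was followed in 6 RNA-seq libraries, 3 of Pole4+/+ Trp53+/- and 3 of Pole4+/+ Trp53+/+ mouse embryonic fibroblasts, out of 18 libraries of 6 genotypes in the series. The libraries were chosen by their labelled genotype, and genes by their place on chromosomes 1 to 19: 15134 autosomal genes of 15710 genes tested. Pole4 encodes a small accessory subunit of DNA polymerase epsilon, the leading-strand replicase, and all 6 libraries carry it on both alleles. Another 3 genotypes lacked Pole4 on both alleles and carried 2, 1 or 0 copies of Trp53, and 1 had Pole4 but no Trp53, with 3 libraries of each. All were primary cultures at passage 1 from C57BL/6 embryos, grown in 15% serum at 5% oxygen with no damaging agent. The Trp53 allele was lost in the germ line, so every cell of an embryo, and not the fibroblasts alone, carried the genotype.

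TRP53 is a tetrameric transcription factor that is kept scarce by the ubiquitin ligase MDM2 and accumulates when DNA is damaged or replication falters. It then switches on genes for cell cycle arrest, apoptosis, repair and its own restraint, the best known being Cdkn1a, whose product p21 inhibits cyclin-dependent kinases. In unstressed fibroblasts a low activity sets the resting level of many of these genes, and 1 lost allele is the genotype of Li-Fraumeni syndrome, in which carriers develop tumours early.

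Stretches that resemble the TRP53 response element are shown first for the promoters of Cdkn1a, Ccng1 and Cd80, 3 of the genes whose levels are followed below. They are matches of letters, and binding was not measured. Each is given 5′ to 3′ on the strand of the gene, from RefSeq promoters on GRCm38.p6, with the stretch aligned to the TRP53 response element consensus (2 decamers) in capitals. That stretch has 1 mismatch to the consensus in Cdkn1a, 1 in Ccng1 and 2 in Cd80.
Cdkn1a, chr17:29090913-29090962 on the plus strand: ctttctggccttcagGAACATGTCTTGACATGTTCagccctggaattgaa
Ccng1, chr11:40755447-40755496 on the minus strand: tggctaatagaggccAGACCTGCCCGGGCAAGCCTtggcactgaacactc
Cd80, chr16:38458807-38458856 on the plus strand: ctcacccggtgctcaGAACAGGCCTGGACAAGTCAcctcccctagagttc
The consensus is its own reverse complement, so a match reads on both strands. A match was allowed up to 2 mismatches outside the fixed C and G of each decamer and a spacer of at most 1 base. In windows of 300 bases, 0.682% of 32851 RefSeq promoters held one, as did 5 of the 75 TRP53 targets with a promoter in the table. Bax, also followed below and with overlapping groups, was among these 5. Its stretch, with 2 mismatches and a spacer of 1 base, is not printed. Among the genes that differed between the genotypes, 1 of the 41 lower genes with a promoter, Cd80, and 0 of the 56 higher ones held a match, beside 0.914% of the 10284 autosomal genes tested that have one. No match says only that these letters are not in this window.

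The libraries differed in 3 ways that stand beside every result below. All 3 Pole4+/+ Trp53+/- libraries came from male embryos, with 166 to 178 CPM (TMM-scaled counts per 1000000) over 4 Y-linked genes and at most 2 CPM of Xist, and all 3 Pole4+/+ Trp53+/+ libraries from female embryos, with 451 to 725 CPM of Xist. Sex and Trp53 genotype therefore cannot be told apart within these 6 libraries. In Pole4-/- the balance leaned the other way, with 1 of 3 Trp53+/- and 2 of 3 Trp53+/+ libraries male. Depth ran from 9535957 to 32441760 counts per library. The second Pole4+/+ Trp53+/- library held 26.8% ribosomal RNA counts, where the other 5 held 0.968% to 11.2%. The fibroblast label held: Col1a1, Vim and the 11 other fibroblast markers were all detected, with a summed level of 21670 to 27940 CPM in Pole4+/+ Trp53+/- and 17040 to 23330 CPM in Pole4+/+ Trp53+/+. None of the 11 erythroid markers passed the filter on low counts, and together they had 0 to 4 counts in each of these libraries. The 13 macrophage markers summed to 6.62 to 70.9 CPM.

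Trp53 itself, on chromosome 11 at 69580359 to 69591873 (GRCm38, plus strand), was read at 58.4, 56.2 and 59.6 CPM in the Pole4+/+ Trp53+/- libraries and at 89.7, 96.1 and 86.6 CPM in the Pole4+/+ Trp53+/+ libraries. All 3 heterozygous libraries lay below all 3 wild-type ones. The level with 1 allele was 0.639 times that with 2 (log2 fold change -0.65, SE 0.11, adjusted p = 0.0108), from 58.1 ± 1.7 against 90.8 ± 4.81 CPM (SD, n = 3). In Pole4+/+ Trp53-/- it was 11.5, 8.65 and 12 CPM, so most counted reads were gone with both alleles. The exact two-sided permutation test of 3 against 3 gave p = 0.1, the smallest it allows. The call was lost without the first heterozygous library (adjusted p = 0.0778) or without the second wild-type library (0.0685), with log2 fold changes from -0.68 to -0.60 over the 6 fits that each left out 1 library.

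Of 15134 autosomal genes, 136 differed (0.899%; edgeR quasi-likelihood test, adjusted p under 0.05): 61 were lower (0.403%) and 75 higher (0.496%) in Pole4+/+ Trp53+/-. The changes were of moderate size, with a median log2 fold change of -0.98 among the lower and 1.04 among the higher genes, and 69 of the 136 reached 1 in either direction. Of the 136, 135 are protein coding. In 45 of the 136 the mean of the heterozygous libraries lay between those of Pole4+/+ Trp53+/+ and Pole4+/+ Trp53-/-. At an unadjusted p under 0.05 there were 1534 genes. The 3 heterozygous and the 3 wild-type libraries did not overlap in any called gene, which a call made on the same libraries nearly fixes. Over all autosomal genes the heterozygotes lay wholly below in 9.92% and wholly above in 10.3%. The count depended on each library: it was 17, 97 and 32 without heterozygous library 1, 2 or 3 and 51, 15 and 64 without wild-type library 1, 2 or 3. All 136 kept their sign in all 6 of these fits, and 11 were called in every one: Bcl11b, Crabp1, Gfra1, Lhx6, Lhx8, Pcdhac2, Vat1l and Gm6685 among the higher genes, and Bdnf, Mef2a and Pde3a among the lower. Another 29 were called in 0 of the 6, among them Cd80, Tnfrsf10b, Nes, Myom1, Col10a1, Ednra, Ereg and Fgf2.

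With sex as a covariate, estimated from the mixed Pole4-/- genotypes, 127 autosomal genes were called, 61 lower and 66 higher. Of the 136, all kept their sign and 69 stayed called. The male-minus-female term itself was called for 0 of the autosomal genes.

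Among the TRP53 targets edgeR called 2 genes, 1 that restrains TRP53 and 1 of cell death. Mdm2, the ligase that degrades TRP53 and is in turn switched on by it, was read at 93.7, 99.6 and 80.3 CPM with 1 allele and at 123, 132 and 147 CPM with 2. The groups did not overlap, and the level was 0.679 times that of wild type (log2 fold change -0.56, SE 0.11, adjusted p = 0.0227). Tnfrsf10b, the TRAIL death receptor, was read at 37.6, 34.9 and 39.6 CPM against 54.2, 51.3 and 63.1 CPM. It was also lower in every heterozygous library than in any wild-type library (log2 fold change -0.59, SE 0.12, adjusted p = 0.0332). Mdm2 was called in 2 of the 6 fits that left out a library and Tnfrsf10b in 0 of 6, with adjusted p up to 0.1 and 0.166. Mdm2 missed the threshold with sex as a covariate (adjusted p = 0.0937), and Tnfrsf10b passed it (0.0146).

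**Figure D1:**
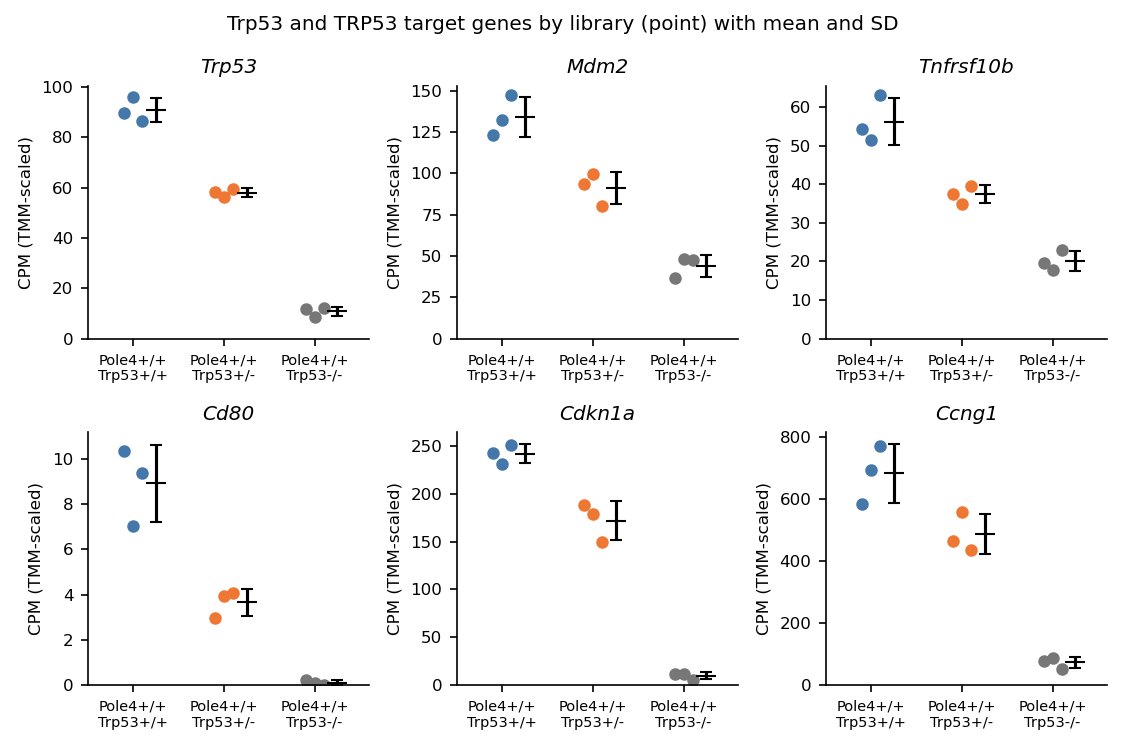
Level in CPM (vertical axes, from 0) of Trp53, the targets Mdm2, Tnfrsf10b, Cdkn1a and Ccng1, and Cd80 in Pole4+/+ fibroblasts with 2, 1 or 0 Trp53 alleles. Each point is 1 library and the bar gives the mean ± SD of 3. All 3 Trp53+/- libraries lie below the 3 Trp53+/+ libraries in each of the 6 panels, Trp53 at 56.2 to 59.6 against 86.6 to 96.1 CPM.

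Cd80, on chromosome 16, encodes a co-stimulatory ligand for T cells and is singled out here after its values were seen, since it is nearly silent without Trp53 and carries the promoter match printed above, with 2 mismatches. It was read at 2.97, 3.93 and 4.08 CPM with 1 allele and at 10.4, 7.03 and 9.37 CPM with 2. It was 0.404 times the wild-type level (log2 fold change -1.31, SE 0.28, adjusted p = 0.039), and it was called in 0 of the 6 fits that left out a library, with adjusted p up to 0.251. In Pole4+/+ Trp53-/- it stood at 0.223, 0.0776 and 0 CPM, and in Pole4-/- the step from 2 alleles to 1 was -1.33 (adjusted p = 0.0202).

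Of the 20 arrest genes edgeR called 0, beside 0.899% of all autosomal genes, and before adjustment p was under 0.05 for 4 lower and 1 higher gene. DESeq2 called 1 lower and 1 higher (186 and 196 of all autosomal genes), and limma voom 3 lower and 1 higher (496 and 579). In the edgeR fit 14 of them lay below 0 and 6 above. Cdkn1a, which carries the match shown above with 1 mismatch, was read at 188, 179 and 149 CPM against 243, 232 and 251 CPM. All heterozygous libraries lay below all wild-type libraries, but the change of -0.49 on the log2 scale (SE 0.21) had an adjusted p of 0.396. It was called by limma voom (0.0237) and with only the 6 libraries (0.0472), and over the 13 alternatives its adjusted p ran from 0.0237 to 0.969. The same gene fell to 11.8, 12 and 5.66 CPM in Pole4+/+ Trp53-/-, a log2 fold change of -4.59. Ccng1, which encodes cyclin G1 and directs a phosphatase to MDM2, was read at 465, 557 and 436 CPM against 582, 693 and 771 CPM (log2 fold change -0.49, SE 0.16, adjusted p = 0.198). It too showed no overlap between the groups, and stood at 77.4, 88.4 and 52 CPM with no allele.

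The other well-known targets were not called. Btg2, an antiproliferative regulator, had a log2 fold change of -0.45, Aen, an apoptotic nuclease, of -0.30, Phlda3, an inhibitor of AKT, of -0.26 and Perp, a membrane protein of apoptosis, of -1.16, each with the groups apart and an exact two-sided permutation p of 0.1, the smallest possible. In Bax (-0.19), Zmat3 (-0.14), Trp53inp1 (-0.19), Plk2 (-0.15) and Sesn2 (0.25) the groups overlapped. Over the whole collection of 91 targets, 90 were tested: edgeR called 2 lower and 0 higher, against 0.403% and 0.496% of all autosomal genes. DESeq2 called 5 lower and 1 higher (186 and 196 of all autosomal genes), and limma voom 10 lower and 6 higher (496 and 579). Without adjustment, 17 lower and 4 higher genes had p under 0.05. The heterozygous libraries lay wholly below the wild type in 31 of the 90 and wholly above in 8, where all autosomal genes gave 9.92% and 10.3%. The median log2 fold change of the 90 was -0.12, beside 0.004 over all autosomal genes, and their mean log2 CPM was 4.36 to 4.45 against 4.46 to 4.62. Their summed level, 4395 to 5009 CPM against 6121 to 6408 CPM, differed more, and most of that gap lay in the 20 arrest genes, at 1995 to 2624 against 3283 to 3899 CPM. A sum is carried by its most abundant members, and 6 of the 20 arrest genes lay above 0.

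By role, the median was -0.18 over 20 arrest genes, -0.20 over 16 apoptosis genes, -0.10 over 7 feedback genes, -0.01 over 9 repair genes, 0.04 over 22 genes of metabolism and autophagy, and -0.23 over 16 further targets. The targets with the lowest p that edgeR did not call were Rprm, a mediator of G2 arrest, at -1.06 (adjusted p = 0.0781), Crip2, a LIM protein, at -1.10 (0.0553), Mgmt, which repairs alkylated guanine, at -0.85 (0.0831), and, among those above 0, Igfbp3, which binds IGF1, at 2.83 times the wild-type level (0.225). Side by side, the same 90 genes had a median of -0.51 with 43 called lower in Pole4+/+ Trp53-/- against the same 3 wild-type libraries, and of -0.21 with 6 called lower in Pole4-/- Trp53+/- against Pole4-/- Trp53+/+. Of all autosomal genes 2.36% and 2.11% were called lower in those comparisons.

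Genes that differ when both Trp53 alleles are lost were also picked without these libraries, by comparing Pole4-/- Trp53-/- with Pole4-/- Trp53+/+. Of 3143 autosomal genes called lower there, 47 were called lower and 1 higher in the heterozygous libraries, and of 3331 called higher there, 1 was called lower and 56 higher, against 0.403% and 0.496% of all autosomal genes. Their medians were -0.07 and 0.05, beside 0.004 over all autosomal genes. Of the 453 genes at least 2 lower there on the log2 scale, 7 were called lower and 0 higher in the heterozygous libraries, with a median of -0.24. Of the 889 at least 1 higher there, a different limit, 0 were called lower and 32 higher, with a median of 0.15.

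In the lists of replication, S-phase, G2 and mitosis genes edgeR called 0, where it called 0.899% of all autosomal genes, so that counts of 0 in lists of this size are near the background. Among 90 replication and S-phase genes tested, edgeR called 0 lower and 0 higher, with 5 higher and 0 lower at an unadjusted p under 0.05 and a median log2 fold change of 0.11. Among these limma voom called 1 higher and DESeq2 called 0, where of all autosomal genes they called 579 and 196 higher. Among 56 G2 and mitosis genes edgeR, DESeq2 and limma voom called 0, and edgeR gave 2 higher and 0 lower at an unadjusted p under 0.05 and a median of 0.15. The groups overlapped for Pole, the catalytic subunit of polymerase epsilon, at 44.4, 39.3 and 39.6 CPM against 39.6, 39.9 and 29.2 CPM (log2 fold change 0.18, SE 0.19, adjusted p = 0.903). Pole2, Pole3 and Pole4 had log2 fold changes of 0.10, 0.10 and 0.08, Ccna2, the S-phase cyclin, of 0.25 and Cdk2, its kinase, of 0.10, all uncalled. Cdk1, E2f1 and Ccne1 lay at -0.01, -0.02 and -0.03, near 0 and of either sign over the alternative settings. For the same S-phase genes the median was 0.53 in Pole4+/+ Trp53-/- with 13 called higher, and 0.64 in Pole4-/- Trp53+/- with 36 called higher, beside 2.24% and 2.97% of all autosomal genes. The first Pole4+/+ Trp53-/- library stood apart, with E2F-regulated S-phase genes summing to 1750 CPM, inside the wild-type range of 1535 to 2038 CPM, where the other 2 were at 2915 and 3275 CPM.

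**Figure D2:**
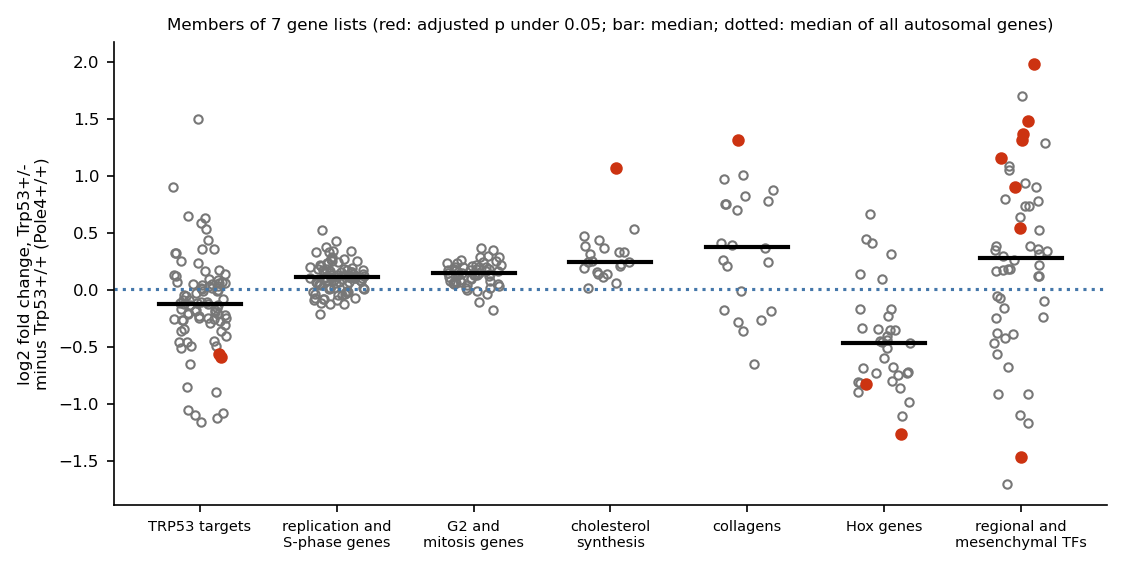
Log2 fold change of each tested autosomal member of 7 gene lists, Pole4+/+ Trp53+/- minus Pole4+/+ Trp53+/+ (vertical axis), with called genes in red, list medians as bars and the median of all autosomal genes dotted. The TRP53 targets have a median of -0.12, the S-phase genes of 0.11 and the Hox genes of -0.47, and most red points are among the regional transcription factors.

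Developmental transcription factors were called in both directions. Of 52 regional and mesenchymal factors tested, 7 were called higher and 1 lower, against 0.496% and 0.403% of all autosomal genes. The median was 0.28, with the heterozygous libraries wholly above the wild type in 17 and wholly below in 9, where all autosomal genes gave 10.3% and 9.92%. In Pole4-/- the median of these 52 for the same step was -0.03, with 4 called higher and 4 lower. Of all autosomal genes 2.97% and 2.11% were called higher and lower there.
Lhx8, a LIM homeobox factor of the jaw mesenchyme, was read at 4.72, 4.33 and 4.52 CPM against 0.756, 0.982 and 1.78 CPM. That is 3.95 times the wild-type level (log2 fold change 1.98, SE 0.28, adjusted p = 0.00494), with no overlap. Shox2, a homeobox factor of limb and palate, stood at 17.8, 20.7 and 17.7 CPM against 7.8, 6.46 and 8.31 CPM (log2 fold change 1.31, SE 0.21, adjusted p = 0.00801).

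Pax3, which marks dermomyotome and neural crest, was read at 22.2, 13.6 and 13.2 CPM against 7.8, 4.91 and 6.41 CPM (log2 fold change 1.36). En1, a factor of the ventral limb and dorsal dermis, was read at 15.2, 8.92 and 8.87 CPM against 5.14, 4.81 and 4.98 CPM (1.16). In both genes the first heterozygous library was the highest of the 6. Msx1, of the limb bud and facial processes, rose by 1.48, Alx1, of the frontonasal mesenchyme, by 0.90 and Tbx15, of limb and skin mesenchyme, by 0.54. Tbx20, a T-box factor known from the heart, was the 1 lower member, at 1.03, 1.4 and 1.6 CPM against 3.51, 4.70 and 2.61 CPM (log2 fold change -1.47, adjusted p = 0.0286).

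Further developmental factors were looked at in a group put together after their values were seen. Of its 18 tested genes, among them Lhx8 again, 11 were called higher and 0 lower, where all autosomal genes gave 0.496% and 0.403%, and the choice of genes makes the counts a description. Of the others, Dlx1 (0.91) and Gli3 (0.24) were not called, and Dlx2 (-0.17) and Pax7 (-0.03) lay below 0. Bcl11b, a zinc-finger repressor of skin and T cell development, had the lowest p after Gm6685, at 40, 27.8 and 24.8 CPM against 9.92, 6.2 and 5.64 CPM. The level was 4.23 times that of wild type (log2 fold change 2.08, SE 0.25, adjusted p = 0.00304). Lhx6, the close relative of Lhx8, stood at 5.72, 6.26 and 4.61 CPM against 1.72, 2.59 and 1.54 CPM (log2 fold change 1.51). Tfap2a (1.46) of the neural crest, Mab21l2 (1.44), Mab21l1 (1.16), Irx1 (0.91), Gli2 (0.67) of hedgehog signalling, Sox12 (0.61) and Sall2 (0.48) were called higher too.

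Hox genes, which mark position along the body axis in their order on the chromosome, lay mostly on the other side. Of 35 tested, 2 were called lower and 0 higher (0.403% and 0.496% of all autosomal genes), and p before adjustment was under 0.05 for 14 lower and 0 higher genes. The heterozygous libraries lay wholly below the wild type in 18 and wholly above in 1, where all autosomal genes gave 9.92% and 10.3%. Hoxb2 was read at 5.46, 8.19 and 7.54 CPM against 11.6, 13.1 and 12.6 CPM (log2 fold change -0.83, SE 0.14, adjusted p = 0.0108), and Hoxa4 at 1.22, 2.13 and 2.13 CPM against 4.05, 5.12 and 3.68 CPM (-1.26, SE 0.25, adjusted p = 0.0261). Both fell outside the threshold with sex as a covariate (0.0638 and 0.137).

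The lower medians sat in the anterior and middle part of the clusters, though values of numbers 9 to 13 reached down to -1.11. The median log2 fold change was -0.75 over 10 genes of paralogue numbers 1 to 4, all 10 below 0, -0.72 over 11 genes of numbers 5 to 8, and -0.20 over 14 genes of numbers 9 to 13, of which 9 were below 0. The heterozygous libraries lay wholly below the wild type in all 8 Hoxb genes, with values from -0.99 to -0.72, in 6 of 11 Hoxa, 3 of 8 Hoxc and 1 of 8 Hoxd genes, beside 9.92% of all autosomal genes. The summed level of the Hox genes was 171, 202 and 228 CPM against 299, 309 and 310 CPM. In Pole4-/- Trp53+/- against Pole4-/- Trp53+/+ the bands stood at -0.70, -0.75 and 0.44.

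**Figure D3:**
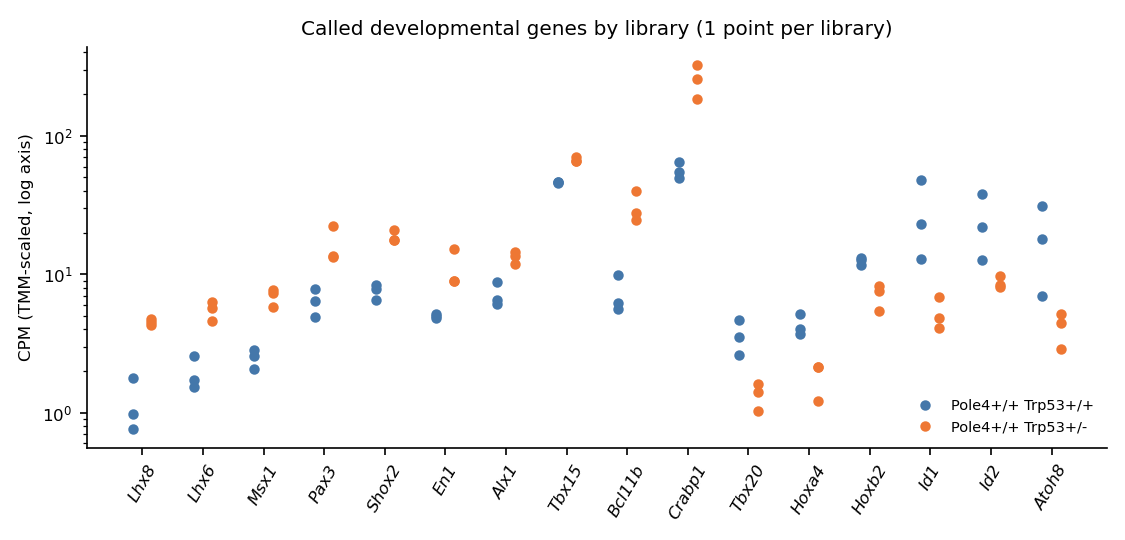
Level in CPM (logarithmic vertical axis) of 16 called developmental genes in the 3 Pole4+/+ Trp53+/+ (blue) and 3 Pole4+/+ Trp53+/- (orange) libraries, 1 point per library. The 10 genes on the left are higher and the 6 on the right lower in every heterozygous library; Id1, Id2 and Atoh8 are the most scattered in wild type.

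Among signalling and surface proteins the called genes went both ways. Bdnf, a neurotrophin, was read at 27.1, 35.3 and 28.4 CPM against 66.8, 83.3 and 55.8 CPM, which is 0.441 times the wild-type level (log2 fold change -1.18, SE 0.15, adjusted p = 0.00304). Gfra1, the receptor for the neurotrophic factor GDNF, rose instead, at 17.4, 16 and 15.2 CPM against 5.47, 5.74 and 5.58 CPM (1.54, SE 0.22, adjusted p = 0.00494). Neither overlapped between the groups, and both stayed called without any 1 library. Crabp1, which binds retinoic acid in the cytoplasm, stood at 324, 185 and 257 CPM against 54.9, 49.3 and 64.9 CPM, 4.53 times the wild-type level.

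Of the other growth factors and receptors, Fgf2 (-0.94) and the EGF-family ligand Ereg (-1.08) were called lower, with the neuropeptide Y receptor Npy1r (-1.49). The IL-33 receptor Il1rl1 (1.27) and the IL-36 receptor Il1rl2 (1.05) were higher, with the leptin receptor Lepr (1.99), the endothelin receptor Ednra (1.25), S1pr3 (0.94) and the ephrin receptors Ephb2 (0.85) and Ephb4 (0.47). Selp, the adhesion molecule P-selectin, was low throughout, at 6, 2 and 2 counts against 67, 74 and 23 counts. Pde3a, which breaks down cyclic AMP, was read at 15.9, 19.8 and 21.7 CPM against 36.8, 31.8 and 32.6 CPM (log2 fold change -0.83, adjusted p = 0.00494).

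Of the matrix genes, Tnn, which encodes tenascin N, had the largest increase, above that of every called autosomal gene but Gm6685. It was read at 192, 122 and 139 CPM against 17.9, 9.51 and 8.48 CPM, 12.5 times the wild-type level (log2 fold change 3.64, SE 0.54, adjusted p = 0.00801). Every heterozygous library was at least at 122 CPM and no wild-type library above 17.9 CPM. Without the second wild-type library its adjusted p was 0.0685. Lrrc15, a membrane protein of activated fibroblasts, stood at 305, 219 and 247 CPM against 83.3, 48.1 and 112 CPM (1.67), and Col5a3 at 73.7, 48.7 and 56.9 CPM against 30.8, 16.6 and 24.8 CPM (1.31). Col5a3 was the 1 called of 22 collagens in the list (0.496% of all autosomal genes were called higher), whose median was 0.38, while Col10a1 (-1.14) and Col19a1 (-2.55) were called lower outside it, with Tinagl1 (-1.29) and Smoc2 (-0.98).

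Several targets of BMP signalling were called lower, in a group put together after the values were seen. Id1, an inhibitor of helix-loop-helix factors, was read at 4.11, 6.79 and 4.79 CPM against 23, 47.7 and 12.9 CPM (log2 fold change -2.43, SE 0.43, adjusted p = 0.0164). Id2 stood at 8.14, 9.65 and 8.34 CPM against 22, 37.7 and 12.6 CPM (-1.47). Wild-type library 2 was the highest and library 3 the lowest of the wild type in both. Smad9 (-1.60) and Atoh8 (-2.20) were called as well, whereas Smad6 (0.499 times the wild-type level), Id3 (-0.85) and Smad7 (-0.60) were not and Id4 lay at 0.59. Hey1 (0.29) and Bmper (0.07) also lay above 0, and Bambi (-0.27) and Msx2 (-0.16) below, all uncalled. Msx1, which is not in this group, was called higher (1.48). Of the 12 genes looked at, 4 were called lower (0.403% of all autosomal genes), and 6 had no overlap between the groups, all 6 below the wild type (9.92%). The choice of genes makes these counts a description. Without wild-type library 2 the log2 fold change of Id1 was -1.80 (adjusted p = 0.0689), and its call was also lost without heterozygous library 1 (0.124) or 3 (0.0859). Id2, Smad9 and Atoh8 were each called in 1 of the 6 fits that left out a library, and Id2 missed the threshold with sex as a covariate (adjusted p = 0.0578). In Pole4+/+ Trp53-/- against the same wild-type libraries, Id1 (-0.46), Id2 (0.17), Smad9 (-0.41) and Atoh8 (-0.35) were all uncalled. With no allele Id1 stood at a mean of 20.4 CPM and Id2 at 27.3 CPM.

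Muscle genes were called in both directions, in another group put together after the values were seen. Of its 11 tested genes 6 were called lower and 1 higher, where all autosomal genes gave 0.403% and 0.496%, and here too the choice makes the counts a description. Mef2a, a transcription factor of muscle and many other tissues, was read at 66.9, 70.8 and 74.4 CPM against 119, 126 and 108 CPM, 0.598 times the wild-type level (log2 fold change -0.74, SE 0.09, adjusted p = 0.00304). The sarcomere genes Myom1 (-1.60) and Ldb3 (-1.11), the chaperone Cryab (-0.90) and the filament gene Nes (-0.90) were also called lower, whereas Fhod3 (1.31), which assembles actin in the sarcomere, was higher. Mef2a was called in 6 of the 6 fits that left out a library, Cryab and Ldb3 in 2, Fhod3 in 1 and Myom1 and Nes in 0, and Nes missed the threshold with sex as a covariate (adjusted p = 0.105). Skeletal muscle markers, of which 12 of 16 were tested and 0 called by edgeR (2 lower at an unadjusted p under 0.05, and 2 lower by DESeq2 and by limma voom), stood lower beside these genes. Of all autosomal genes DESeq2 called 186 lower and limma voom 496. The summed level of the skeletal muscle markers was 66 to 85.6 CPM in Pole4+/+ Trp53+/- and 122 to 157 CPM in Pole4+/+ Trp53+/+. Mural cell markers stood at 205 to 235 against 310 to 357 CPM. The part of such cells in these results was not tested, and fewer cells of a type cannot be told apart from less RNA per cell in bulk cultures.

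**Figure D4:**
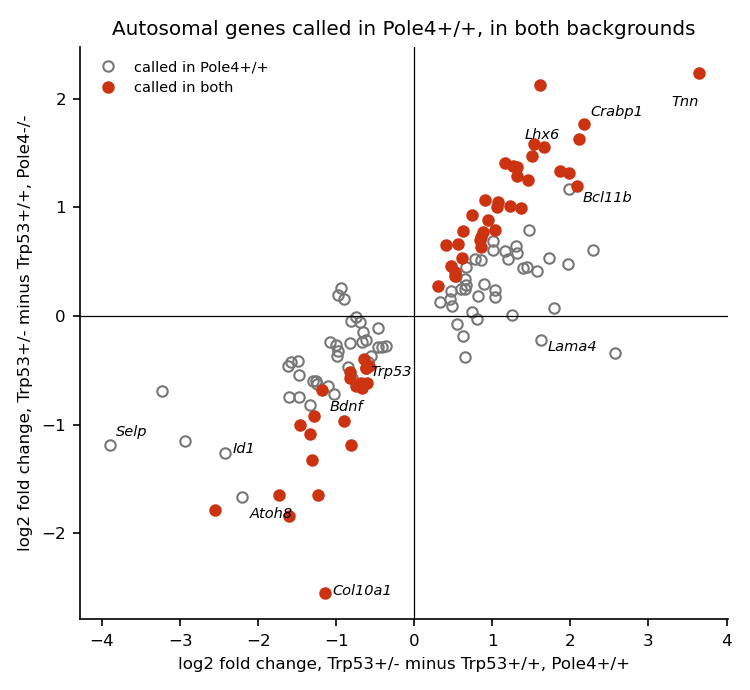
Log2 fold change of 1 lost Trp53 allele in Pole4+/+ (horizontal axis) and Pole4-/- (vertical axis) for the called autosomal genes other than Gm6685, with genes called in both in red. The axes share no library, and 127 of the 136 called genes, Gm6685 counted, have the same sign in both backgrounds.

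The same step was measured a second time in Pole4-/- fibroblasts, with no library in common. There 770 autosomal genes were called (320 lower, 2.11%, and 450 higher, 2.97%), and 58 genes were called in both backgrounds with the same direction, which is 42.6% of the 136 and 7.53% of the 770. Of the 136, 127 had the same sign, a count for which no share over all autosomal genes was taken. Without 1 library of the Pole4+/+ comparison, the shared count ran from 11 (first heterozygous library left out) to 39. With sex as a covariate it was 32. The difference between the backgrounds was called by edgeR for 0 autosomal genes, 1514 of which had an unadjusted p under 0.05, by DESeq2 for 26 and by limma voom for 984.

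In Pole4-/- the step was 1.20 for Bcl11b, 1.76 for Crabp1, 1.31 for Lhx8, 1.48 for Lhx6, 1.58 for Gfra1 and 2.24 for Tnn, and it was -0.68 for Bdnf, -0.65 for Mef2a and -0.52 for Pde3a, all called. Trp53 fell there by 0.40 on the log2 scale (adjusted p = 0.0461). Pcdhac2, a protocadherin, had 2.29 in Pole4+/+ and 0.61 in Pole4-/- (adjusted p = 0.23), Selp -3.90 and -1.19 (0.185), Lama4 1.63 and -0.22 (0.711) and Nes -0.90 and 0.16 (0.628). By edgeR 0 of these 4 differences between backgrounds were called (adjusted p from 0.451 to 0.491). DESeq2 called that of Lama4 (0.037), and limma voom those of Lama4 (0.0295), Pcdhac2 (0.033) and Nes (0.0143).

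Near Trp53 on chromosome 11, edgeR called 0 of 292 other genes within 10 Mb, against 12 of 885 (1.36%) on the rest of the chromosome and 123 of 13956 (0.881%) on the other autosomes. Within 20 Mb it called 3 of 511. The lowest p of all autosomal genes belonged to Gm6685 (chr11, 28339104 to 28339867, minus strand), a single-exon gene 41.2 Mb from Trp53, singled out after its values were seen. Its transcript is 99.3% identical over 751 bases to that of Cyb5d1, a cytochrome b5 domain gene 0.185 Mb from Trp53. Of the 5 differences, 3 lie in the stretch shown here, read 5′ to 3′ from the GENCODE M21 transcripts, with the differing bases in capitals.
Gm6685, transcript bases 302 to 361: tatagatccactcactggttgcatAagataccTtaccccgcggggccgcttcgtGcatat
Cyb5d1, transcript bases 289 to 348: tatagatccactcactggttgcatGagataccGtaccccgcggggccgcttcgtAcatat

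Reads of the pair are split between them by the estimated counts, so neither level is certain on its own. Gm6685 had 63, 26 and 10 counts in Pole4+/+ Trp53+/- and 2, 0 and 0 counts in Pole4+/+ Trp53+/+ (adjusted p = 0.00152). With 2 counts in wild type, the summed counts gave a ratio of 53.6, with an exact 95% interval from 14.4 to 448 that covers counting error only. The fitted log2 fold change of 5.44 depends on the prior count and ran from 5.04 to 7.97 in the fits that left out a library, highest without wild-type library 1, which holds both counts. Cyb5d1 had 10.7, 12.2 and 9.65 CPM against 12.6, 12.1 and 14.3 CPM. The 2 together overlapped between the genotypes, at 12.4, 13.9 and 10.6 CPM against 12.7, 12.1 and 14.3 CPM. Gm6685 took 13.5%, 12.2% and 8.55% of the pair in Pole4+/+ Trp53+/- and 11.8%, 11.8% and 12.4% in Pole4-/- Trp53+/-. With 2 Trp53 alleles its share was at most 0.606% in 6 of 6 libraries, and with none it was 21.5% to 28.6% in 6 of 6.

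**Figure D5:**
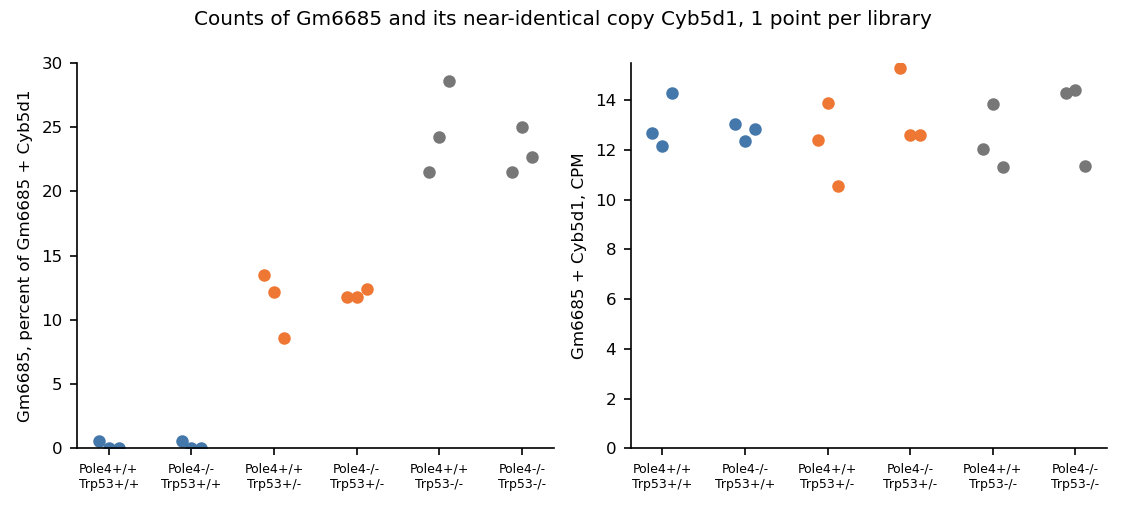
Left, Gm6685 as a percent of the counts of Gm6685 and Cyb5d1 together, and right, the summed level of both in CPM, for the 6 genotypes with 3 libraries each (1 point per library, axes from 0). The share stands at up to 0.606%, 8.55% to 13.5% and 21.5% to 28.6% with 2, 1 and 0 Trp53 alleles, while the summed levels of the genotypes overlap.

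The remaining lists held few called genes. All 21 cholesterol genes tested had log2 fold changes above 0, with a median of 0.24. Glycolysis and hypoxia genes had 1 of 24, Ndrg1 (1.01), called higher (0.496% of all autosomal genes), with a median of 0.23. Of 34 interferon-stimulated genes, Irgm1 (-0.81), an immunity-related GTPase, was lower and Psmb8 (1.72), a subunit of the immunoproteasome, was higher, beside 0.403% lower and 0.496% higher over all autosomal genes. The list had a median of 0.44, with 27 of 34 above 0, the heterozygous libraries wholly above the wild type in 13 and wholly below in 1 (10.3% and 9.92% of all autosomal genes), and 7 higher against 1 lower before adjustment. DESeq2 called 2 higher and 1 lower (196 and 186 of all autosomal genes), and limma voom 8 and 1 (579 and 496). In Pole4-/- its median for the same step was -0.24. The lists of ATF4, NRF2, immediate early, contractile, protease, cytokine, growth-axis and G1 cyclin genes, and the markers of other cell types, had 0 called by edgeR. Other tools did call some of them, beside 382 (DESeq2) and 1075 (limma voom) of the 15134 autosomal genes called by each. DESeq2 called 1 NRF2 and 1 immediate early gene lower, 1 protease or inhibitor and 1 cytokine each way, and 1 mural cell marker lower. By limma voom 4 contractile genes and 1 G1 gene, Rb1 (adjusted p = 0.0343), were lower, with 2 lower and 4 higher proteases or inhibitors, 2 each way among the cytokines and 2 each way among the growth-axis genes, 1 NRF2 and 2 immediate early genes lower, 2 mural cell markers lower and 1 neuronal or glial marker higher. Cxcl12, a chemokine, at 165, 239 and 253 CPM against 418, 480 and 599 CPM, had the lowest p of the cytokines (log2 fold change -1.19, adjusted p = 0.0736 by edgeR). It was called under 3 of 13 alternatives, by DESeq2 (0.00316), by limma voom and with only the 6 libraries.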

How the data were processed

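Poly(A) RNA of 18 libraries was amplified, sequenced as paired reads and deposited as 1 table of RSEM expected counts for 51912 genes. Per the labels the authors used RSEM 1.3.0 with STAR 2.5.2 on GRCm38. Of the deposited estimated counts 6.14% were not whole (tolerance 0.001), and they were rounded here. Of the gene identifiers, 51719 matched GENCODE M21, which gave symbols and positions.

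The 18 libraries were fitted together in edgeR 4.0.16 (R 4.3.3) with 1 mean for each of 6 genotypes (12 residual degrees of freedom), TMM scaling, filterByExpr and the robust quasi-likelihood F-test. P-values were adjusted by Benjamini-Hochberg over all 15710 genes tested, called at under 0.05 and counted over the 15134 autosomal genes. CPM are TMM-scaled counts per 1000000. DESeq2 1.42.0, limma voom 3.58.1 and other settings were alternatives, and the fit was tested on simulated data. The study's own test was DESeq2.

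Members and lists were chosen with earlier results of these data known. Named genes were Trp53 and 12 known targets, 9 replication genes, the 10 lowest p, the 8 highest and 8 lowest fold changes among called genes (predicted genes passed over), and up to 4 called members of each list, or the lowest p each way where none was called. The labels do not tie replicates to embryos, so p-values measure the spread between these libraries. Promoters came from RefSeq (GRCm38.p6), matched by symbol. Some called genes are not reported here.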

Additional observations from a re-analysis of the deposited data

Results flagged for a closer look

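Genes off the autosomes were kept out of the comparisons. In the Pole4+/+ Trp53+/- libraries the summed level of 4 Y-linked genes was at least 166 CPM, against at most 0.302 CPM in the Pole4+/+ Trp53+/+ libraries. Off the autosomes 6 genes were called, all on the X chromosome: Pls3 (-0.50), Dmd (-0.93) and Hs6st2 (-0.60) were lower and Prrg3 (1.48), Nhsl2 (1.48) and Syn1 (0.85) higher on the log2 scale in Pole4+/+ Trp53+/-. Sex and genotype cannot be told apart in these values.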

How the results depend on the processing

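The number of autosomal genes called, 136 (61 lower, 75 higher), moved with the test and the scaling: 20 (4, 16) at an adjusted p under 0.01, 69 (28, 41) with a change of at least 1 on the log2 scale, 382 (186, 196) by DESeq2, 1075 (496, 579) by limma voom and 37 (18, 19) with library totals alone. With only the 6 libraries the lower count was 112. Without 1 library the counts ran from 15 to 97, from 6 to 32 lower and from 9 to 65 higher. The difference between Pole4 backgrounds gave 0 calls, 26 by DESeq2 and 984 by voom. Genes called in both backgrounds, a count added after seeing the data, went from 58 to 5, 26, 167, 362 and 20 in the order of the first 5 settings, to 32 with sex as a covariate and to 11 to 39 without 1 library. TRP53 targets called lower went from 2 to 0, 0, 5, 10 and 0 in that order, 1 with upper-quartile scaling, 7 with the 6 libraries and 0 to 1 without 1 library. Trp53 kept its direction, from -0.75 to -0.60. It missed the limits of 0.01 and 1 at its -0.65, missed 0.05 with library totals alone (-0.65), and ran from -0.68 to -0.60 without 1 library. Within 20 Mb of Trp53, 3 genes were called, against 0 within 10 Mb.

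Same-numbered libraries deviated together with r of 0.0365, 0.4 and 0.274, and the first heterozygous library correlated best with the third wild-type library, so the numbers were not taken as pairs. With a replicate block, 183 genes were called and 4 TRP53 targets were lower.

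Uncalled genes that changed sign were Egr3 (-0.54 by voom), Cdk1 (0.00545 with upper-quartile scaling, 0.00166 with a mean of at least 50 counts), and with sex as a covariate Plk2 (0.19), Ccne1 (0.16), Cdk1 (0.0742), E2f1 (0.0443) and Elavl4 (0.52). Without 1 library the range was -0.11 to 0.11 for E2f1, -0.0313 to 0.76 for Egr3, -0.15 to 0.0472 for Ccne1, -0.10 to 0.10 for Cdk1, -0.98 to 0.0615 for Sp7, -0.38 to 0.0799 for Trp53inp1 and -0.0500 to 0.19 for Pole4. The causes were not tested. Intervals from counting do not cover amplification, and low genes such as Selp rest on few counts.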
